A study of Mus musculus with 8 samples.

Results

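miR-140 and miR-455 are a pair of microRNA hairpins known for their expression in cartilage, and each gives 2 mature strands, a 3p arm and a 5p arm. The 4 mature miRNAs mmu-miR-140-3p, mmu-miR-140-5p, mmu-miR-455-3p and mmu-miR-455-5p (mmu, the mouse prefix, is mostly left out below) were taken by name from the 1418 entries (a mature arm with its precursor) for 1281 mature miRNAs, and each has 1 entry. Small RNA had been sequenced in 3 libraries of mouse calvaria and in 5 libraries of MC3T3 E1 sc4 cells, a cloned pre-osteoblast line from mouse calvaria, labelled C57BL/6. The calvaria (parietal and frontal bones, digested with collagenase and trypsin) came from female C57/B6 Prrx1-Cre+ pups of 2 to 3 days. Prrx1-Cre is a transgene driven by a regulatory element active in limb and head mesenchyme, and no floxed allele is named in the labels. The MC3T3 libraries are titled day 0 (undifferentiated) and days 6, 10, 17 and 24, and differentiation was induced with 50 µg/ml ascorbic acid and 4 mM β-glycerol phosphate. The data columns of days 6, 10, 17 and 24 also carry the tag veh, which the day 0 column lacks. What veh stands for is not in the labels used here. Anything it marks cannot be told apart from the change between day 0 and later days. Each MC3T3 library pools RNA of 3 cultures of 1 cloned line, so there is 1 library per day. Whether each of the 3 calvaria libraries is a separate animal is not in the labels, so the spread behind the p-values may be technical.

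A microRNA is cut from its hairpin as a duplex, and usually 1 strand, the guide, is kept in Argonaute and pairs with target transcripts through its seed (bases 2 to 8). Mir140 is transcribed within Wwp2, under the chondrocyte factor SOX9, and mice without it have short, malformed skeletons. Its 5p arm was reported to act on Adamts5, which encodes a cartilage-degrading protease. Mir455 lies in Col27a1, which encodes a fibrillar collagen of cartilage, and mice without it were reported to lose joint cartilage with age. The flat bones of the skull vault form without a cartilage template. The labels name no cartilage sample, so the name cartilage miRNA is background here and was not tested.

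In mm10 (GRCm38), Mir140 occupies chr8:107551244-107551313 on the plus strand, in intron 16 of the 23 introns of a coding transcript of Wwp2, and it also falls in the exon of a retained-intron transcript of that gene (GENCODE M21). Mir455 occupies chr4:63256851-63256932 on the plus strand, in intron 10 of the 60 introns of a coding transcript of Col27a1. RefSeq (GRCm38.p6) gave a mature sequence for 3 of the 4 members. They are shown because no pair of them has a seed in common, and capitals mark bases 2 to 8:
mmu-miR-140-3p: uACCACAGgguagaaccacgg
mmu-miR-455-5p: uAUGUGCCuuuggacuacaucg
mmu-miR-455-3p: gCAGUCCAcgggcauauacac

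The whole Mir140 hairpin is shown because both of its arms were measured, and its capitals mark the 3p arm, bases 45 to 65 of 70:
Mir140 hairpin: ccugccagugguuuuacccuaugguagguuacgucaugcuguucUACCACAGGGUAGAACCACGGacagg

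Among the mature mouse sequences in that table, miR-497b has the seed of miR-140-3p, and it is not among the entries analysed. miR-5129-3p has the seed of miR-455-5p and had 3 to 13 counts per library, against 5019 to 20338 counts of miR-455-5p. No other mature sequence in the table has the seed of miR-455-3p. The seed of miR-140-5p was not searched, because RefSeq gave no mature sequence for it. Of the 1281 mature miRNAs measured, 1029 had a mature sequence there, so miRNAs with a member's seed could be missed among the rest.

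Library totals were 1183011, 2023036 and 1343318 counts in calvaria 1, 2 and 3, and 2742368 to 4031962 counts in the MC3T3 libraries. Levels are given in RPM, the count scaled by the total of its library, with no correction for length. The members had 576 to 176919 counts per library, so the counting error of single values is small, and intervals are 95% Poisson intervals that cover counting error only. The day 0 library stood apart, with 45.5% of its counts from miR-21a-5p against 11.2% to 20.1% on later days. TMM scaling, which sets libraries to a common level for most miRNAs, gave day 0 a factor of 0.694 and day 6 a factor of 1.21. The mesenchymal miR-199a, miR-214, miR-143 and miR-145a arms summed to 131924 to 145904 RPM in calvaria and 130003 to 187906 RPM in MC3T3. Within that sum the arms went both ways. miR-143-3p (50332 to 64103 RPM in calvaria, 87473 to 117479 RPM in MC3T3) and miR-145a-5p (987 to 1175 and 1306 to 2897 RPM) were lower in calvaria. miR-199a-3p was higher (49959 to 55986 and 19984 to 41864 RPM), and miR-199a-5p and miR-214-3p overlapped. In bulk samples, fewer cells of a type and less RNA per cell cannot be told apart.

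All 4 members were higher in newborn calvaria than in the cultured line. Together they took 9.46% ± 2.89 of counts in calvaria (SD, n = 3) and 2.57% ± 0.435 in MC3T3 (SD over 5 days). Most of that was miR-140, with 8.44% ± 2.53 in calvaria and 2.19% ± 0.314 in MC3T3. miR-455 took 1.02% ± 0.363 in calvaria and 0.379% ± 0.141 in MC3T3.

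mmu-miR-140-3p had 86014, 87452 and 46597 RPM in calvaria 1, 2 and 3, against 14511, 20426, 21109, 18250 and 20154 RPM in MC3T3 at days 0, 6, 10, 17 and 24. The groups did not overlap, and the lowest calvaria value was 2.21 times the highest MC3T3 value. It was the most abundant miRNA of all in calvaria 1 and 2 and ranked 7 in calvaria 3, while in MC3T3 it ranked 12 to 15.

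mmu-miR-140-5p, the less abundant arm, had 12570, 11906 and 8513 RPM in calvaria 1, 2 and 3, against 2319, 4091, 3046, 2793 and 2820 RPM in MC3T3 at days 0 to 24. Again no MC3T3 library reached a calvaria library, and the gap between the groups was 2.08 times. Its rank was 20 to 28 in calvaria and 31 to 46 in MC3T3.

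mmu-miR-455-5p had 11510, 10053 and 5394 RPM in calvaria 1, 2 and 3, against 1245, 3536, 3990, 4384 and 3420 RPM in MC3T3 at days 0 to 24. Its groups came closer, with the lowest calvaria value at 1.23 times the highest MC3T3 value, that of day 17. mmu-miR-455-3p was the scarcest member, with 1516, 1476 and 731 RPM in calvaria 1, 2 and 3, against 143, 608, 631, 574 and 409 RPM in MC3T3. The gap narrowed to 1.16 times between calvaria 3 and day 10, and it still exceeded the counting error, with intervals of 686 to 778 RPM in calvaria 3 and 603 to 659 RPM at day 10. Every calvaria RPM lay above every MC3T3 RPM for 4 of 4 members, and for 35% of all 551 entries tested, while 25.6% of entries lay wholly below.

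**Figure D1:**
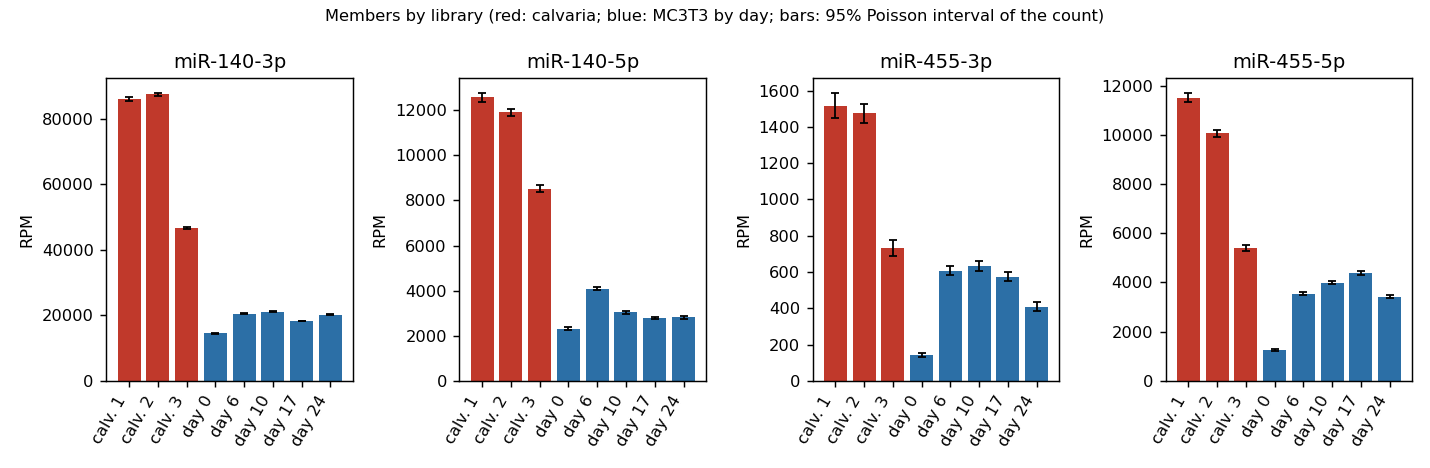
RPM of the 4 members in each library, with 3 calvaria libraries (red) left of the 5 MC3T3 days (blue) and 95% Poisson intervals of the count as error bars. Calvaria 3 is the lowest calvaria library in all 4 panels, and day 0 is the lowest MC3T3 library.

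In the edgeR quasi-likelihood test of the 3 calvaria against the 5 MC3T3 libraries, with Benjamini-Hochberg adjustment over 551 entries, 4 of 4 members were higher in calvaria. Of all entries, 32.7% were called higher and 33.8% lower. miR-140-3p was 3.50-fold higher (95% interval 2.52 to 4.87; log2 1.81 ± 0.21 SE; adjusted p = 3.49e-05). miR-140-5p was 3.33-fold higher (2.55 to 4.36; log2 1.74 ± 0.17; adjusted p = 1.20e-05). For miR-455-5p the difference was 2.53-fold (1.57 to 4.10; log2 1.34 ± 0.31; adjusted p = 0.00373), and for miR-455-3p it was 2.49-fold (1.43 to 4.33; log2 1.32 ± 0.36; adjusted p = 0.00900). The miR-455 arms, with the wider errors, also had the larger spread in RPM, although the fit used TMM-scaled counts. In MC3T3 the SD was 43.1% of the mean for miR-455-3p and 36.8% for miR-455-5p. It was 14.1% for miR-140-3p and 21.8% for miR-140-5p, which had the smallest error. In calvaria it was 35.6% for both miR-455 arms, 31.6% for miR-140-3p and 19.8% for miR-140-5p.

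These differences are moderate beside the rest of the comparison. By log2 difference, the members stood at places 126, 127, 138 and 140 from the top of 551 entries, and the median of all entries was -0.13. Upper quartile scaling, which moves that median to -0.61, took the adjusted p of miR-455-3p to 0.0601 (log2 0.82) and lowered miR-455-5p to log2 0.84 (adjusted p = 0.0333). The higher and lower calls over all entries split as 180 and 186 with TMM, 216 and 128 with DESeq2 size factors, 179 and 137 with library totals, and 143 and 251 with upper quartile factors.

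**Figure D2:**
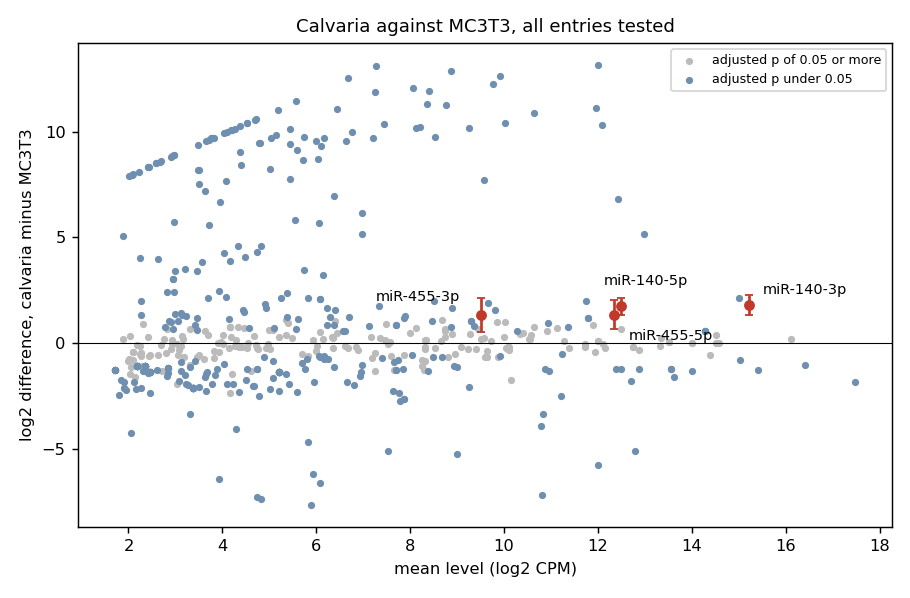
Log2 difference (calvaria minus MC3T3, TMM scaling) against mean level in log2 CPM for the 551 entries tested; red points are the 4 members with 95% intervals. The members lie between log2 1.32 and 1.81, at higher mean levels than most entries.

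Against MC3T3 at days 17 and 24 only, miR-455-5p was still higher in calvaria by log2 0.88 (adjusted p = 0.0332) and miR-455-3p by 1.01 (adjusted p = 0.0259) in the edgeR test. The same contrast gave 1.60 for miR-140-3p and 1.64 for miR-140-5p (adjusted p = 0.00164 and 0.000187). Against days 0 and 6 the values were 1.67 for miR-455-5p, 1.54 for miR-455-3p, 1.71 for miR-140-3p and 1.45 for miR-140-5p, all with an adjusted p of at most 0.0291. The difference between these sets of days was not tested.

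Calvaria 3 held less of every member, a comparison made after the values were seen. Relative to the mean RPM of calvaria 1 and 2, it had 0.489 of miR-455-3p, 0.50 of miR-455-5p, 0.537 of miR-140-3p and 0.696 of miR-140-5p. A fall of over 1.5-fold was seen for 3 of 4 members and for 14.6% of the 192 mature miRNAs with a mean of at least 100 RPM in calvaria, whose median ratio was 0.935. Markers of some other cell types were also different in calvaria 3. The 2 miR-126 arms of endothelium summed to 20323 RPM in calvaria 3, against 9028 and 10749 RPM in calvaria 1 and 2. For 5 striated muscle miRNAs the sum was 637 RPM in calvaria 3 against 365 and 278 RPM, with miR-208b-3p at 0 throughout. The scarce miR-499-5p of that list was lowest in calvaria 3 (2.23 RPM against 3.38 and 2.47 RPM). For 7 blood cell miRNAs it was 454 RPM against 308 and 362 RPM, much of it miR-451a (170 RPM against 85.4 and 116 RPM), while miR-223-3p, miR-150-5p and miR-142-5p lay between calvaria 1 and 2. The epithelial sum (78.2 RPM against 78.6 and 73.2 RPM) and the nervous system sum (626 RPM against 599 and 682 RPM) also lay between them. The mesenchymal sum was highest in calvaria 3, at 145904 RPM against 139490 and 131924 RPM in calvaria 1 and 2. Of its arms, miR-143-3p was highest there (64103 RPM against 52572 and 50332 RPM) and miR-199a-3p lowest (49959 RPM against 54409 and 55986 RPM). miR-199a-5p, miR-214-3p and miR-145a-5p lay between calvaria 1 and 2. The part of any of these cell types in the lower values was not tested. Without calvaria 3 the members were higher by log2 1.87 to 2.34, with adjusted p of at most 0.00435 (edgeR).

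The endothelial arms also separated the materials, with 9028 to 20323 RPM in calvaria and 6.20 to 19.0 RPM in MC3T3. The blood cell list had 308 to 454 RPM in calvaria and 38.9 to 111 RPM in MC3T3. Most of the MC3T3 sum was miR-486-5p, which was lower in calvaria (log2 -0.80, adjusted p = 0.0236, edgeR; a call lost with DESeq2 size factors or library totals), and the other 6 summed to 260 to 395 RPM in calvaria and 0.951 to 5.47 RPM in MC3T3. The 6 epithelial miRNAs had 73.2 to 78.6 RPM in calvaria and 3.22 to 12.4 RPM in MC3T3, and only 2 of them had enough counts to be tested. In calvaria most of the sum was miR-203-3p (52.4 to 56.4 RPM, against 0.644 to 6.93 RPM in MC3T3). The scarce miR-200c-3p and miR-141-3p overlapped between the materials. miR-205-5p was higher at days 6 to 24 (2.55 to 3.49 RPM) than in calvaria (0.845 to 1.98 RPM). The 4 nervous system miRNAs summed to 599 to 682 RPM in calvaria and 326 to 460 RPM in MC3T3, most of it miR-128-3p (533 to 608 RPM in calvaria and 272 to 446 RPM in MC3T3). Their most neuron-restricted members, miR-124-3p and miR-137-3p, had no count in MC3T3 and 0 to 0.994 RPM in calvaria. The 2 nervous system miRNAs that were tested, miR-128-3p among them (log2 0.52, adjusted p = 0.141, edgeR), did not pass. Of these 2, 1 was higher with DESeq2 size factors and 1 with library totals. The muscle sums overlapped, with 278 to 637 RPM in calvaria and 212 to 574 RPM in MC3T3. Their members differed: miR-1a-3p had 202 to 381 RPM in calvaria and 16.1 to 88.1 RPM in MC3T3, miR-133a-3p 28.8 to 50.4 and 0.992 to 5.47 RPM, and miR-206-3p 45.0 to 203 and 104 to 556 RPM. miR-1a-3p (log2 1.99, adjusted p = 0.00113) and miR-133a-3p (2.99, adjusted p = 3.90e-05) were called higher in calvaria by edgeR. The other 2 of the 4 tested did not pass, and of all 471 miRNAs tested 35.5% were higher. Of these 2, miR-499-5p was called lower in calvaria with upper quartile factors (log2 -2.45, adjusted p = 0.0303, edgeR). The part of these cells in the higher calvaria levels of miR-140 and miR-455 was not tested.

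Over the MC3T3 course both arms of miR-455 were lowest at day 0 on either scale, and both arms of miR-140 were lowest at day 0 in RPM but not after TMM scaling. miR-455-5p stood at 1709, 2811, 3844, 4098 and 3479 TMM-scaled CPM at days 0, 6, 10, 17 and 24. miR-455-3p stood at 196, 483, 608, 537 and 416. The largest step of miR-455-3p was the first, a ratio of day 6 to day 0 of 4.26 in RPM (95% binomial interval 3.88 to 4.68) and 2.46 after TMM scaling. miR-455-5p reached 2.84 times its day 0 RPM (2.75 to 2.94), or 1.64 times its TMM-scaled level. At day 24 both arms were below day 17, at 0.849 (miR-455-5p) and 0.775 (miR-455-3p) of its TMM-scaled level. These ratios compare single libraries and carry no test.

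miR-140-3p stood at 19926, 16238, 20339, 17058 and 20501 TMM-scaled CPM at the same days, and miR-140-5p at 3185, 3252, 2935, 2610 and 2869. From day 0 to day 24 their ratios were 1.03 and 0.901 after TMM scaling and 1.39 and 1.22 in RPM. The higher RPM of miR-140 on later days was thus not kept on the TMM scale.

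**Figure D3:**
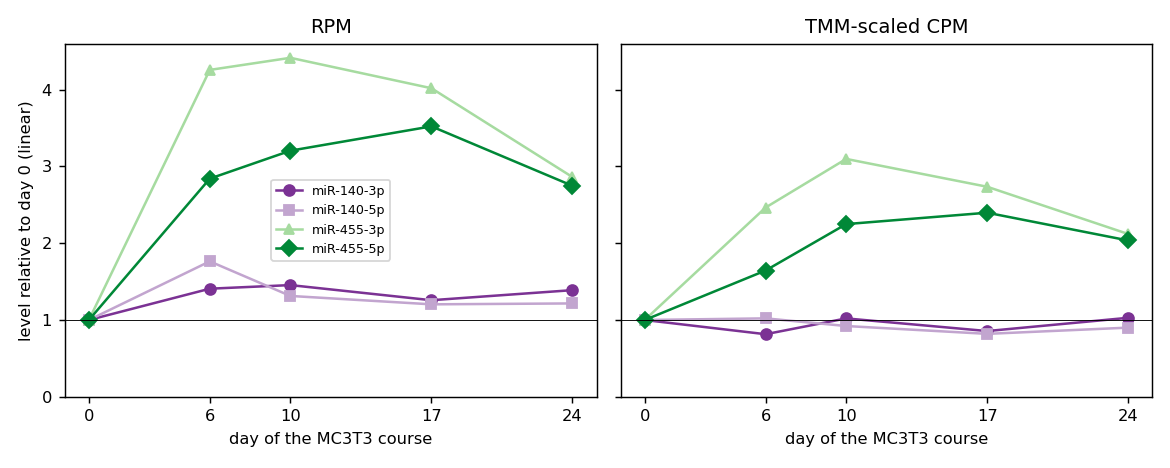
Level of each member at each MC3T3 day relative to day 0, in RPM (left) and TMM-scaled CPM (right), 1 library per day. The miR-455 arms lie above 1 at every later day on both scales, while the miR-140 arms lie at 0.815 to 1.03 after TMM scaling.

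A linear day trend was tested with edgeR over the 5 MC3T3 libraries and 469 entries, of which 1.28% rose and 1.71% fell at an adjusted p under 0.05. None of the 4 members was called by edgeR, DESeq2 or limma, and 0 had an unadjusted p under 0.05 in edgeR. The fitted 24-day log2 change was 0.98 ± 0.47 (SE) for miR-455-5p (95% interval -0.09 to 2.06, adjusted p = 0.268) and 0.74 ± 0.67 for miR-455-3p (-0.79 to 2.27, adjusted p = 0.548). It was 0.05 ± 0.31 for miR-140-3p (-0.66 to 0.77, adjusted p = 0.925) and -0.24 ± 0.33 for miR-140-5p (-0.98 to 0.51, adjusted p = 0.680). On a log2(day + 1) scale, which weighs the first step more, miR-455-5p rose by 1.23 (adjusted p = 0.0232), and miR-455-3p had 1.39 (adjusted p = 0.0527). In that fit 10% of all 469 entries rose and 11.9% fell. The miR-455 slopes rest on single libraries. Without day 0 they were 0.27 for miR-455-5p and -0.46 for miR-455-3p, and without day 24 they were 1.85 and 1.99.

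The balance between the hairpins varied more over MC3T3 days than among calvaria libraries. Summed over arms, miR-140 had 7.57, 8.62 and 9.0 times the counts of miR-455 in calvaria 1, 2 and 3, and 12.1, 5.92, 5.23, 4.24 and 6.00 times at days 0, 6, 10, 17 and 24. All calvaria ratios lay between that of day 0 and those of later days. Among the 5p arms, miR-140-5p exceeded miR-455-5p by 1.09, 1.18 and 1.58 times in calvaria 1, 2 and 3 and by 1.86 and 1.16 times at days 0 and 6. The order was the other way at days 10, 17 and 24, when the ratio was 0.764, 0.637 and 0.825. Over the groups, the log2 ratio of the 5p arms averaged 0.34 ± 0.28 in calvaria and -0.04 ± 0.61 in MC3T3 (SD, n = 3 and 5; exact two-sided permutation test, p = 0.357, adjusted over 4 ratios 0.714). For the 3p arms the log2 ratio was 5.90 ± 0.09 in calvaria and 5.48 ± 0.71 in MC3T3 (exact permutation p = 0.321, adjusted 0.714). Changes of 0.586 to 2.46 times (5p) and 0.559 to 2.00 times (3p) were not rejected, so a lesser or greater excess of miR-140 over miR-455 in calvaria could not be told. The smallest p that the 56 splits of 3 against 5 libraries allow is 0.0357.

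The hairpins favoured opposite arms, and the arm ratios of calvaria and MC3T3 overlapped for each. miR-140 gave mostly its 3p arm, with 6.84, 7.35 and 5.47 counts of 3p per count of 5p in calvaria 1, 2 and 3. In MC3T3 at days 0, 6, 10, 17 and 24 these ratios were 6.26, 4.99, 6.93, 6.54 and 7.15. The groups overlapped, with calvaria 3 and day 6 the lowest of their groups. miR-455 gave mostly its 5p arm, with 7.59, 6.81 and 7.38 counts of 5p per count of 3p in calvaria 1, 2 and 3, and 8.71, 5.81, 6.33, 7.64 and 8.37 in MC3T3. All 3 calvaria ratios of miR-455 fell within the MC3T3 range, whose ends were day 0 and day 6.

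As log2 of 3p over 5p, miR-140 averaged 2.70 ± 0.22 in calvaria and 2.66 ± 0.20 in MC3T3, a difference of 0.04 (exact two-sided permutation test, p = 0.821, adjusted 0.964). The same test gave miR-455 -2.86 ± 0.08 in calvaria and -2.86 ± 0.25 in MC3T3, a difference of 0.01 (exact p = 0.964, adjusted 0.964). Ratios between 0.768 and 1.46 times that of MC3T3 were not rejected for miR-140, nor between 0.768 and 1.27 times for miR-455. Single libraries differed by more than counting error: the exact binomial interval of the miR-140 ratio was 4.90 to 5.09 at day 6 and 6.78 to 7.08 at day 10.

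Arm balance was next set beside that of all 59 hairpins with 1 entry per arm and at least 10 counts of both arms in every library. The 3p arm led on average in 27 of them and the 5p arm in 32. Calvaria and MC3T3 arm ratios did not overlap for 20.3% of the 59, and they overlapped for both miR-140 and miR-455. From the lowest to the highest of the 8 libraries the log2 ratio spanned 0.56 for miR-140 and 0.58 for miR-455, the smallest and second smallest spans of the 59, whose median was 1.37. The next spans were close, with 0.60 for miR-22 and 0.62 for miR-99b, so a narrow span was not particular to miR-140 and miR-455. Scarce arms carry more counting error, so the same was done, after the values were seen, for hairpins with at least 100 counts of both arms in every library. Of these 24, miR-140 and miR-455 again had the smallest spans, and the median was 1.18. With a minimum of 500 counts, 6 hairpins were left, with a median of 0.92 and the same order.

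**Figure D4:**
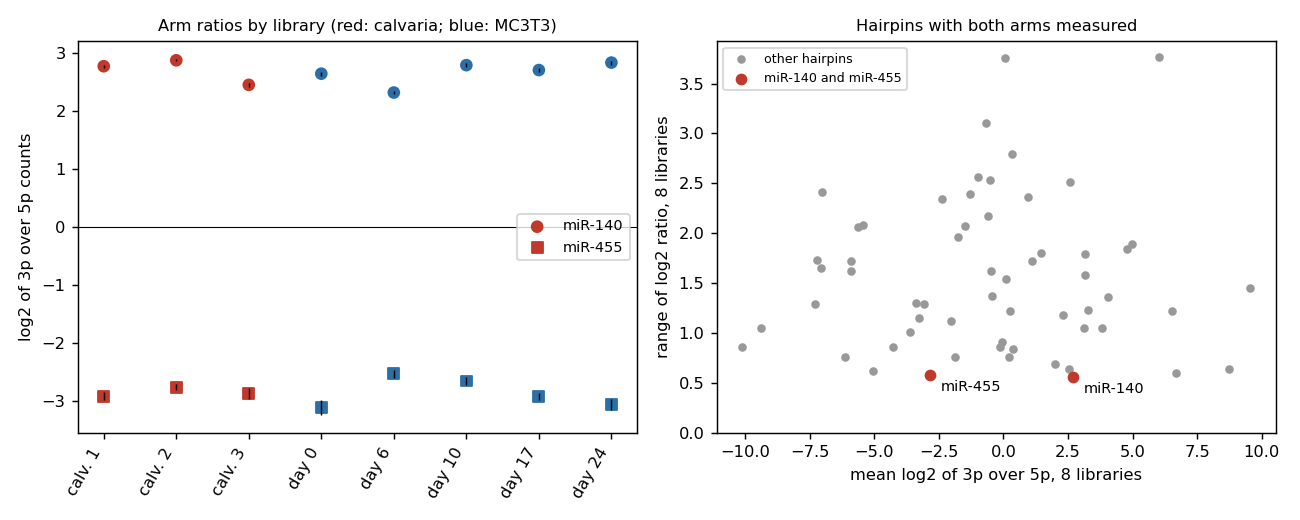
Left, log2 of 3p over 5p counts for miR-140 (circles) and miR-455 (squares) in each library, calvaria in red left of MC3T3 in blue, with exact 95% binomial intervals. Right, span of that log2 ratio over 8 libraries against its mean for 59 hairpins, where miR-140 (0.56) and miR-455 (0.58) lie lowest, close to the next hairpins.

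The pattern over the 8 libraries was compared with that of the other 360 mature miRNAs with a mean of at least 10 RPM, as the root mean square difference of centred, TMM-scaled log2 CPM. The median miRNA differed from a member by 1.21 to 1.27 log2 units. The partner arm was at 0.18 in all 4 cases, the nearest of all for both miR-455 arms and second nearest for both miR-140 arms. Nearest to both miR-140 arms was miR-501-3p (0.18 for each), with 363, 345 and 217 RPM in calvaria 1, 2 and 3 and 76.2 to 91.6 RPM in MC3T3. Next came miR-345-5p (0.33) for miR-140-3p and miR-652-3p (0.26) for miR-140-5p. The next after the partner arm for miR-455-5p were miR-362-3p (0.24) and miR-450a-5p (0.25), and for miR-455-3p the same pair (0.30 and 0.33). miR-450a-5p, like miR-455, was lowest at day 0, with 333 RPM against 956 to 1244 RPM on later MC3T3 days, and had 1727 to 2146 RPM in calvaria. Between the hairpins the distances were 0.45 to 0.56, at places 12 to 30. All these patterns share the same 8 libraries, their depths and the split into calvaria and MC3T3.

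Other miRNAs reported in cartilage or chondrocytes differed in both directions. Of 8 listed, 7 were tested on counts summed per mature miRNA, and miR-1247-5p was too scarce. Of these 7, 3 (miR-381-3p and both miR-675 arms) passed the count filter through calvaria alone, so their higher call was fixed by the filter. Among the other 4, 1 was higher, 1 lower and 2 did not pass, and of all 471 miRNAs tested 35.5% were higher and 28.7% lower. miR-148a-3p, reported to raise cartilage matrix in human chondrocytes, had 47168, 64874 and 90592 RPM in calvaria 1, 2 and 3, against 1262, 13597, 18991, 15088 and 24488 RPM in MC3T3 at days 0 to 24 (log2 2.05 ± 0.59, adjusted p = 0.0111, edgeR). miR-381-3p had 1239 to 2009 RPM in calvaria and 0.761 to 1.93 RPM in MC3T3. Both miR-675 arms, made from H19, had 13.4 to 33.0 RPM in calvaria and no count in MC3T3. miR-193b-3p was lower in calvaria, with 40.9 to 60.8 RPM against 152 to 438 RPM in MC3T3 (log2 -2.78, adjusted p = 1.71e-05, edgeR). miR-320-3p (-0.41) and miR-92a-3p (0.72) did not pass, but miR-92a-3p was higher with library totals (0.99) and miR-320-3p lower with upper quartile factors (-0.88). No member of this list passed the day trend among 4 tested (edgeR), and none with DESeq2 size factors, library totals or upper quartile factors.

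A second list held 12 miRNAs reported to target Sox9 or to restrain chondrocyte differentiation, some of them in rat or chick. All 12 were tested against MC3T3, and miR-494-3p and miR-495-3p, with at most 3 counts in any MC3T3 library, passed the filter through calvaria alone. Of the other 10, 7 were lower, 2 higher and 1 not past the threshold, against 28.7% lower and 35.5% higher of all 471 miRNAs. miR-29a-3p (log2 -2.57), miR-34a-5p (-2.44), miR-221-3p (-2.15), miR-29b-3p (-2.06), miR-21a-5p (-1.89), miR-30a-5p (-1.38) and miR-145a-5p (-1.28) were lower, with adjusted p of at most 0.0127 (edgeR). Those that were higher were miR-146a-5p (3.15) and miR-199a-3p (0.51, a call lost with upper quartile factors, log2 0.06). miR-494-3p, of the imprinted Dlk1-Dio3 cluster, had 148 to 405 RPM in calvaria and 0 to 0.951 RPM in MC3T3. miR-101a-3p did not pass (-0.32). In the day trend 1 of 10 tested rose, miR-146a-5p (3.22, adjusted p = 0.0473, edgeR), a call lost with library totals (adjusted p = 0.105), against 1.02% of all 391 miRNAs tested.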

How the data were processed

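The authors deposited estimated counts for every arm of every precursor, and the same entries as RPM. Recomputing the deposited RPM from the counts and their column sums gave values within 0.0127 RPM. cutadapt 0.9.5, Bowtie 0.12.7 and mm10 are named, per the submitters' processing notes, with no role or order. The quantifier was not given in the sources used here, nor was the miRBase release. Of nonzero raw values, 67.3% were whole (within 0.005), as were all 32 values of the members. MC3T3 columns carry days 3 lower than the sample titles do, and the titles' days are used.

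Expected counts were rounded to whole numbers. Main tests used edgeR 4.0.16 (R 4.3.3; quasi-likelihood, TMM, Benjamini-Hochberg, threshold 0.05), which was tested on simulated data. Entries needed 10 counts in 3 of 8 libraries (calvaria against MC3T3) or in 2 of 5 (day trend). With 1 library per day, MC3T3 spread includes change over days. Ratios used exact permutation tests (SciPy 1.17.1), whose unrejected range is all shifts with p above 0.05. Alternatives were other scaling, count minimum, DESeq2 1.42.0, limma 3.58.1 on log2(RPM + 1) and log2(RPM + 10), summed counts and libraries left out. Named were the members, the 3 miRNAs with the nearest pattern, and list members with a mean of at least 100 RPM (marker lists mainly as sums). Also named were miRNAs with a member's seed, searched for every member but miR-140-5p. The scarcer miR-675, miR-1247-5p, miR-29b-3p, miR-495-3p, miR-146a-5p, miR-451a, miR-486-5p, miR-223-3p, miR-150-5p, miR-142-5p, miR-208b-3p, miR-124-3p and miR-137-3p were named after their values were seen. So were miR-203-3p, miR-200c-3p, miR-141-3p, miR-205-5p, miR-133a-3p and miR-499-5p, and the miR-22 and miR-99b hairpins. The members and lists were chosen with earlier results of these data known.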

Additional observations from a re-analysis of the deposited data

How the results depend on the processing

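The calvaria difference of miR-140-3p, miR-140-5p and miR-455-5p kept its direction and stayed past the threshold under all 22 alternatives, and that of miR-455-3p under 21, with upper quartile factors the exception (log2 0.82, adjusted p = 0.0601). Leaving out 1 library gave log2 1.81 to 2.34 for miR-140-3p, 1.72 to 2.18 for miR-140-5p, 1.15 to 1.87 for miR-455-3p and 1.21 to 1.89 for miR-455-5p. Over all entries, leaving out 1 library gave 97 to 202 higher and 95 to 187 lower calls, with the fewest (97 to 102 higher) without a calvaria library, when fewer entries passed the filter. Lower calls numbered 109 with the DESeq2 Wald test and 101 against days 0 and 6, and a minimum of 100 counts, with fewer entries tested, gave 85 higher and 87 lower. With a filter in 2 libraries, chosen after the data were seen, leaving out a calvaria library gave 178 to 184 higher calls and 123, 117 and 176 lower calls (without calvaria 1, 2 and 3).

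In the day trend, near-zero slopes changed sign: miR-140-3p had -0.18 with upper quartile factors, -0.091 with a minimum of 100 counts and -0.036 on the log2(day + 1) scale, and miR-140-5p had 0.01 with limma at both pseudocounts (0.0055 and 0.0053). miR-455-5p passed on the log2(day + 1) scale (1.23, adjusted p = 0.0232). Leaving out 1 day gave -0.16 to 0.21 for miR-140-3p, -0.40 to -0.14 for miR-140-5p, -0.46 to 1.99 for miR-455-3p and 0.27 to 1.85 for miR-455-5p, with signs turned for miR-140-3p without day 6 (-0.08) or day 24 (-0.16) and for miR-455-3p without day 0 (-0.46). Calls over all entries (6 rose, 8 fell) ranged from 0 to 35 and 2 to 40 with 1 day left out. They were 14 and 20 without the filter, 2 and 2 with a minimum of 100 counts, 20 and 14 with DESeq2, 47 and 56 on the log2(day + 1) scale, and 11 and 2 with limma on log2(RPM + 10). Fallen entries numbered 2 with limma on log2(RPM + 1) and 5 with library totals or summed counts. The cause was not tested.

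Arm ratio differences were near 0 and changed sign with 1 library left out, from -0.047 to 0.165 for miR-140 (-0.047 without calvaria 2, -0.045 without day 6) and -0.059 to 0.087 for miR-455 (-0.039 without calvaria 2, -0.059 without day 0, -0.011 without day 17, -0.044 without day 24). The ratio of miR-140 to miR-455 differed by log2 0.30 to 0.72 for 3p arms and 0.23 to 0.62 for 5p arms. Hairpins with arm ratios that did not overlap numbered 12 to 19 with 1 library left out, 19 of 61 without calvaria 3. No paired analysis was possible because the labels link no calvaria library to an MC3T3 library. The lowest count of a member was 576.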
